A study of Mus musculus with 8 samples.

Results

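The unfolded protein response genes examined here are 10 genes of mouse liver, chosen by symbol and by role: the sensors Ern1, Eif2ak3 and Atf6, the transcription factors Xbp1, Atf4, Ddit3 and Creb3l3, the phosphatase subunit Ppp1r15a and the chaperones Hspa5 and Hsp90b1. All 10 had at least 1 m6A peak, out of 11558 genes with a peak in either genotype. Their peaks were 17 of the 15635 in the Wtap flox/flox list and 21 of the 19185 in the Wtap-HKO list.

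The libraries came from livers of mice at 8 weeks of age on normal chow. Control mice were Wtap flox/flox, and Wtap-HKO mice carried the same floxed alleles together with Alb-Cre, a recombinase driven by the albumin promoter and so active in hepatocytes, while the other cells of the liver keep the gene. Each genotype had 2 IP and 2 input libraries of m6ARIP-seq, in which fragmented mRNA is pulled down with an antibody to N6-methyladenosine (m6A) and set against the input. Every library was made from RNA pooled over several mice. Wtap encodes an adaptor protein of the complex that writes m6A, and the comparison addresses which sites lose or gain enrichment without it in hepatocytes.

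When unfolded protein builds up in the endoplasmic reticulum (ER), IRE1 (Ern1), PERK (Eif2ak3) and ATF6 sense it in the ER membrane. IRE1 splices Xbp1 mRNA, PERK phosphorylates eIF2 so that general translation slows while ATF4 is made, and ATF6 is cut to release a transcription factor. Together they raise chaperones and degradation factors, and ATF4 also drives CHOP (Ddit3) and Ppp1r15a. The liver, which secretes most plasma proteins, relies on this pathway heavily, and Creb3l3 is its liver-enriched ATF6 relative. Typical m6A lies near stop codons and along 3′ UTRs in GGAC-like contexts. Antibodies to m6A also bind the methylated adenosine next to the mRNA cap, and a peak at a transcript start cannot tell the marks apart.

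Each list combines the replicates of its genotype, so a peak has 1 fold enrichment (IP over input, a linear ratio) per genotype, with no value per library, no SD and no test. All comparisons below describe those pooled values. Read totals were not used here, so the depth behind a peak is unknown, and a peak missing from a list was not called rather than shown to be absent. The ratio of enrichments divides out the level of an mRNA only as far as the authors' scaling does. Each enrichment is relative to the IP and input of its own genotype, so a change in m6A common to all sites may not show. Higher and lower below therefore refer to enrichment and not to the amount of m6A. In whole liver, fewer cells of a type and less RNA per cell cannot be told apart.

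Of the member genes, 5 had a Wtap-HKO peak that reached into the first 50 bases of a RefSeq transcript. The stretches below, from the RefSeq promoter table (GRCm38.p6), are shown because the largest gains in Wtap-HKO livers lay at such starts. They are on the transcribed strand, written 5′ to 3′ as DNA, each is covered by the Wtap-HKO peak, and capitals mark GGAC. They are Eif2ak3 chr6:70844515-70844544 (plus strand, transcript positions 1 to 30), Ppp1r15a chr7:45526223-45526252 (minus, 17 to 46), the downstream start of Creb3l3 chr10:81092548-81092577 (minus, 15 to 44), Hsp90b1 chr10:86705415-86705444 (minus, 1 to 30) and Ddit3 chr10:127290804-127290833 (plus, 12 to 41).
Eif2ak3: cggaaccctcgctcaatgggcgatgtctgc
Ppp1r15a: ataaaagccgcgtGGACgatgttggcgcag
Creb3l3: caggcggtgacagGGACccgaaaagaggct
Hsp90b1: tggaggtgtgaggagcttagactcgggatt
Ddit3: ttgagcctaacacgtcgattatatcatgtt

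GGAC, searched on the transcribed strand alone, stood in the first 50 bases of 4 of the 10 promoters matched for 9 member genes (Hspa5, Ppp1r15a, Xbp1 and 1 of the 2 starts of Creb3l3). Among all 32851 promoters of the table, 18.9% held it. Atf6 was not matched. Of the starts whose window a Wtap-HKO peak reached, those of Ppp1r15a and the downstream one of Creb3l3 held GGAC. Those of Eif2ak3, Hsp90b1 and Ddit3 did not. At Hspa5 and Xbp1 no Wtap-HKO peak reached into that window. A match describes the letters only.

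Across the 10 genes there were 22 sites, counting peaks that shared at least 1 exonic base on 1 strand as 1 site. Of these, 16 were in both lists, 1 was in the Wtap flox/flox list only and 5 were in the Wtap-HKO list only. Thus 5.88% of the member peaks of Wtap flox/flox livers had no Wtap-HKO counterpart, against 19.9% of all Wtap flox/flox peaks, and 23.8% of the member peaks of Wtap-HKO livers had no Wtap flox/flox counterpart, against 35.3% of all Wtap-HKO peaks. The members' peaks were mostly modest in height. Their median fold enrichment was 3.43 in Wtap flox/flox livers (range 1.31 to 16.1), beside 5.51 over all peaks, and 3.09 in Wtap-HKO livers (range 1.29 to 16.5), beside 5.93.

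**Figure D1:**
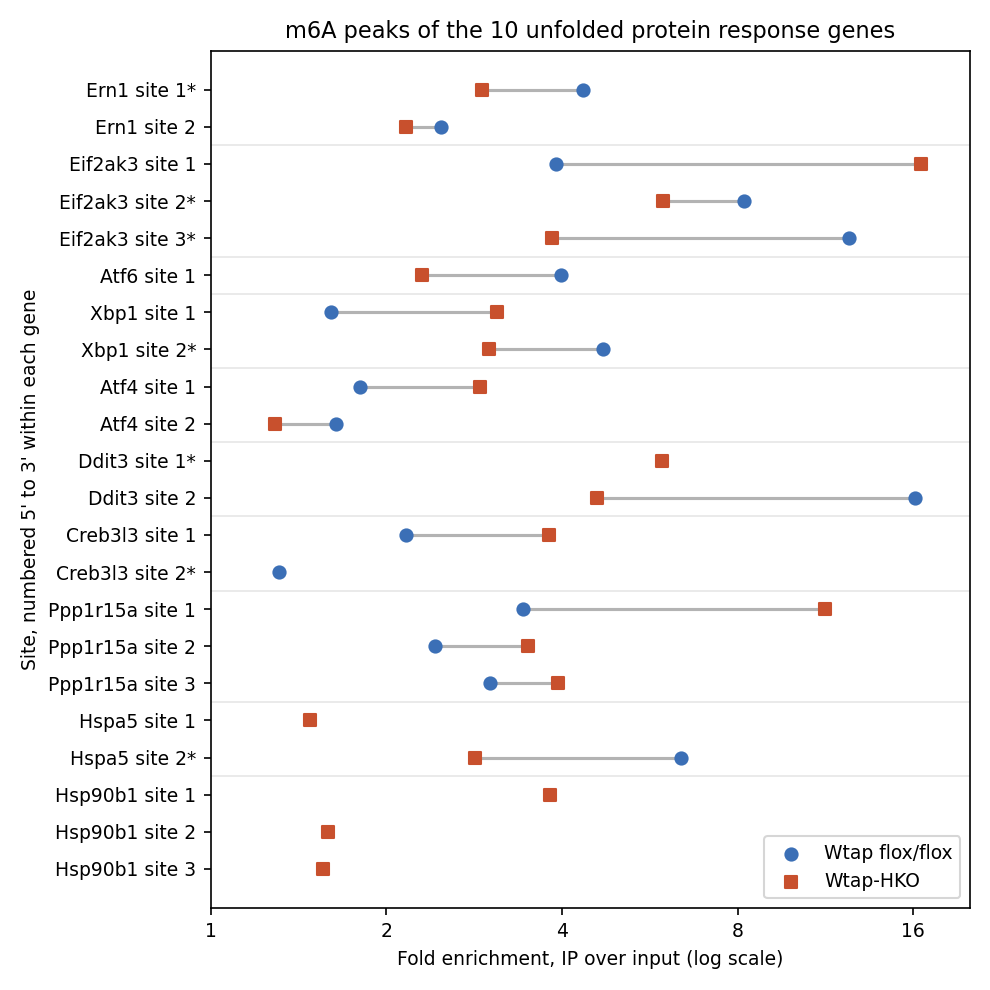
Fold enrichment of IP over input (x axis, log scale) at each of the 22 sites of the 10 genes (y axis, numbered 5′ to 3′ in each gene), with circles for Wtap flox/flox and squares for Wtap-HKO, 1 pooled value per genotype. Grey lines join the values of a shared site, asterisks mark sites in the list of sites that differ between the genotypes, and the longest lines belong to Eif2ak3 sites 1 and 3, Ddit3 site 2 and Ppp1r15a site 1.

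At the 16 shared sites enrichment was lower in Wtap-HKO livers at 9 and higher at 7. A difference of at least 1.5-fold was found at 5 sites downward and 5 upward, or 31.2% of the sites each way. Over all 10499 sites found 1 to 1 in both lists, 25.0% were at least 1.5-fold lower and 27.9% at least 1.5-fold higher, so the members' shares lay near the background. The median log2 ratio (Wtap-HKO over Wtap flox/flox) was -0.27 at the member sites and 0.01 over all sites. The plot of all ratios shows the member sites spread over that distribution, from -1.81 to 2.08. Their lower and upper quartiles were -0.68 and 0.72, beside -0.58 and 0.66 over all sites.

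**Figure D2:**
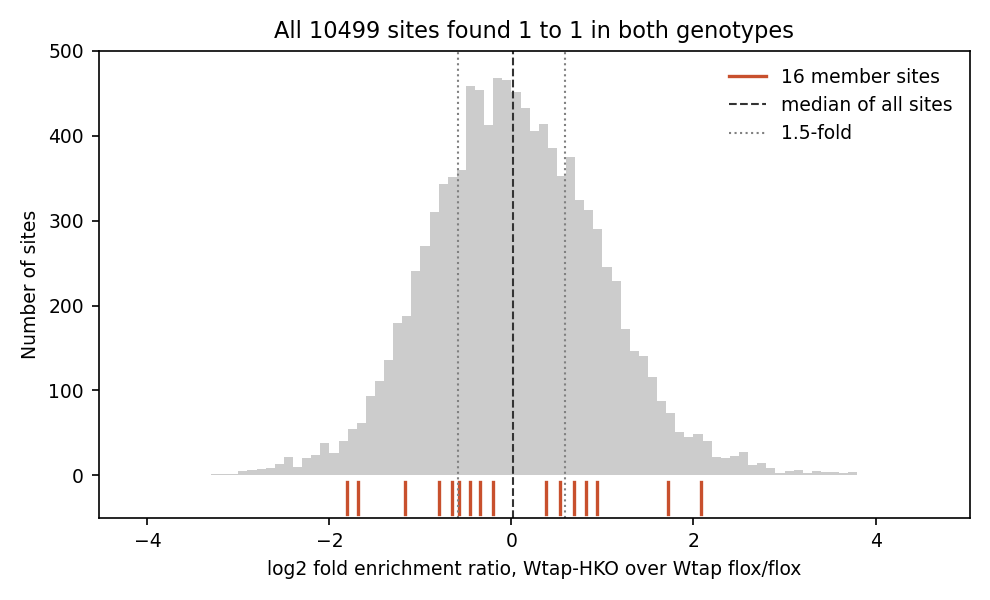
Number of sites (y axis) by log2 ratio of fold enrichment, Wtap-HKO over Wtap flox/flox (x axis), for the 10499 sites found 1 to 1. Red ticks are the 16 member sites, the dashed line is the median of all sites (0.01) and dotted lines mark 1.5-fold in each direction, with 5 member sites beyond each.

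Eif2ak3, the PERK kinase, had the widest contrast between its own sites. At its 5′ end (site 1, ENSMUSG00000031668, chr6:70844515-70844725 in Wtap-HKO livers) fold enrichment was 3.90 in Wtap flox/flox livers and 16.5 in Wtap-HKO livers, which is 4.23-fold higher (log2 ratio 2.08). The Wtap flox/flox peak had the weakest score of all member peaks (log10 false discovery rate -4.14), so the size of this ratio is uncertain. The Wtap-HKO peak covered all 50 first bases of the RefSeq transcript, and the narrower Wtap flox/flox peak covered 20 of them. Near the 3′ end (site 3, chr6:70904226-70904645, 596 nt from the end of the gene) the order was the opposite, with 12.4 in Wtap flox/flox livers and 3.85 in Wtap-HKO livers, or 3.22-fold lower. Site 2, at 79.5% of the gene span, lay between them with 8.19 and 5.96.

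Ern1, which encodes IRE1, carried both of its peaks close to the 3′ end and none near its start. Site 1 (ENSMUSG00000020715, chr11:106398272-106399798, minus strand, 510 exonic nt) was enriched 4.35-fold in control (Wtap flox/flox) and 2.92-fold in Wtap-HKO livers. That ratio, 1.49-fold lower, was just short of the 1.5-fold counted above. Site 2, 263 nt from the 3′ end, had 2.48 and 2.16. Both sites were lower in Wtap-HKO livers, and Ern1 was the member with the smaller ratio at its more 5′ site.

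Atf6, the sensor that is itself cut into a transcription factor, had a single site (ENSMUSG00000026663, chr1:170709739-170710038, minus strand) at 5282 nt from the 3′ end. Its enrichment was 3.98 in Wtap flox/flox livers and 2.30 in Wtap-HKO livers, 1.73-fold lower, and the peak was 300 nt long in the former and 151 nt in the latter. The most 3′ site was thus lower in all 3 sensors, though only slightly in Ern1, and Atf6 had no other site. It was lower in 7 of the 10 members, so this was not particular to the sensors.

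Among the transcription factors, Xbp1, whose mRNA is the substrate of IRE1, had a site on each side. Site 1 (ENSMUSG00000020484, chr11:5520897-5521747 in Wtap-HKO livers, 256 nt from the 5′ end) had an enrichment of 1.61 in Wtap flox/flox livers and 3.09 in Wtap-HKO livers. Site 2 (chr11:5524731-5525357, 636 nt from the 3′ end) had 4.70 and 3.0, or 1.57-fold lower. In Wtap flox/flox livers the 3′ site was the taller one, and in Wtap-HKO livers the sites were nearly level.

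Atf4, translated when eIF2 is phosphorylated, followed the same layout at low enrichment. Site 1 (ENSMUSG00000042406, chr15:80255512-80255721 in Wtap-HKO livers, 328 nt from the 5′ end) had 1.80 in Wtap flox/flox livers and 2.89 in Wtap-HKO livers. Site 2, 123 nt from the 3′ end, had 1.64 and 1.29, where 1.29 was the lowest enrichment of any member peak in Wtap-HKO livers.

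Ddit3 encodes CHOP, the transcription factor tied to cell death under prolonged ER stress. Its 3′ site (site 2, ENSMUSG00000025408, chr10:127295845-127296288, ending 3 nt from the 3′ end) was the tallest member peak of Wtap flox/flox livers with an enrichment of 16.1, and had 4.60 in Wtap-HKO livers. This 3.50-fold lower value (log2 ratio -1.81) was the largest decrease among the members. A peak at its start was in the Wtap-HKO list only (site 1, chr10:127290804-127293801, 178 exonic nt in 2 blocks, 11 nt from the 5′ end), with an enrichment of 5.94.

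Creb3l3, a liver-enriched factor that controls acute phase and lipid genes, had the lowest Wtap flox/flox peak of all members. That peak (site 2, ENSMUSG00000035041, chr10:81084623-81084772, minus strand, 294 nt from the 3′ end) had an enrichment of 1.31 and was the only member site without a Wtap-HKO peak. Its site 1 (chr10:81091855-81092816 in Wtap-HKO livers) had 2.16 in Wtap flox/flox livers and 3.80 in Wtap-HKO livers. This site lay 6026 nt from the 5′ end of the gene span, yet in both genotypes it covered the first 50 bases of the downstream of the 2 RefSeq starts.

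Ppp1r15a, or GADD34, brings a phosphatase to eIF2 and so restores translation. Its 3 sites were all higher in Wtap-HKO livers, and it was the member whose most 3′ site of any kind was a shared one with higher enrichment. At the start (site 1, ENSMUSG00000040435, chr7:45525998-45526268, minus strand) enrichment was 3.43 in Wtap flox/flox livers and 11.3 in Wtap-HKO livers, 3.29-fold higher. The Wtap flox/flox peak had the next weakest score of all member peaks (log10 false discovery rate -6.33), after that of Eif2ak3 site 1. The size of this ratio is therefore uncertain too. The Wtap-HKO peak reached the first base of the transcript, while the Wtap flox/flox peak stopped 60 nt short of it. Site 2 had 2.42 and 3.50, and site 3 had 3.01 and 3.93, so the ratio grew smaller towards the 3′ end.

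Hspa5 encodes BiP, the major HSP70 chaperone of the ER, which also binds the sensors. Its long 3′ site (site 2, ENSMUSG00000026864, chr2:34775658-34776378, 151 nt from the 3′ end) had an enrichment of 6.40 over 721 nt in Wtap flox/flox livers and 2.84 over 541 nt in Wtap-HKO livers, 2.25-fold lower. A short peak of 91 nt at 120 nt from the 5′ end (site 1) was in the Wtap-HKO list only, with an enrichment of 1.48.

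Hsp90b1, the ER form of HSP90 also named GRP94, had no peak in Wtap flox/flox livers and 3 in Wtap-HKO livers. The tallest (ENSMUSG00000020048, chr10:86704390-86705509, minus strand) covered the 5′ end with an enrichment of 3.81. The others, at 47.9% of the span and at 823 nt from the 3′ end, had 1.59 and 1.56. A further Wtap-HKO peak with no gene name (chr10:86705316-86705448, same strand) lay at the same start with an enrichment of 4.80. The 2 chaperones therefore both had a 5′ peak in the Wtap-HKO list alone, but differed at the 3′ end, where Hspa5 was lower and Hsp90b1 had a weak new peak.

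In most members the direction went with the position within the gene. In 8 of the 9 members with at least 2 sites, the most 5′ site was higher in Wtap-HKO livers (5 members) or found there only (3 members, Ddit3, Hspa5 and Hsp90b1), with Ern1 the exception. Of the 5024 genes of the series with at least 2 sites, each in 1 list only or matched 1 to 1, 73.9% had such a most 5′ site. The most 3′ site was lower in 7 of the 10 members, by at least 1.5-fold in 5, and it was lost in Creb3l3, higher in Ppp1r15a and new in Hsp90b1. Over 10342 genes of the series with at least 1 such site, the most 3′ one was shared and lower in 28.6%. Among the 9 members with at least 2 sites it was so in 6, against 34.8% of the 5024 genes. Of the 5 members with at least 2 shared sites, 4 had the higher log2 ratio at the most 5′ one, and the differences in log2 ratio between the most 5′ and the most 3′ site were 3.77 in Eif2ak3, 1.59 in Xbp1, 1.34 in Ppp1r15a, 1.03 in Atf4 and -0.38 in Ern1.

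The same layout was common in the series. Among all 2286 genes with at least 2 shared sites, 62.8% had the higher log2 ratio at the most 5′ site. In 3 of the 5 members (Eif2ak3, Xbp1 and Atf4) the most 5′ site was higher and the most 3′ site lower in Wtap-HKO livers, a combination found in 35.5% of those 2286 genes. Along the gene span, the median log2 ratio of all sites went from 0.75 in its first 10% to -0.18 in its last 10%. The plot by position places Eif2ak3 site 1 and Ppp1r15a site 1 above the middle 50% of all sites in the first 10% of the span, and Eif2ak3 site 3, Ddit3 site 2 and Atf6 below that of the last 10%.

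**Figure D3:**
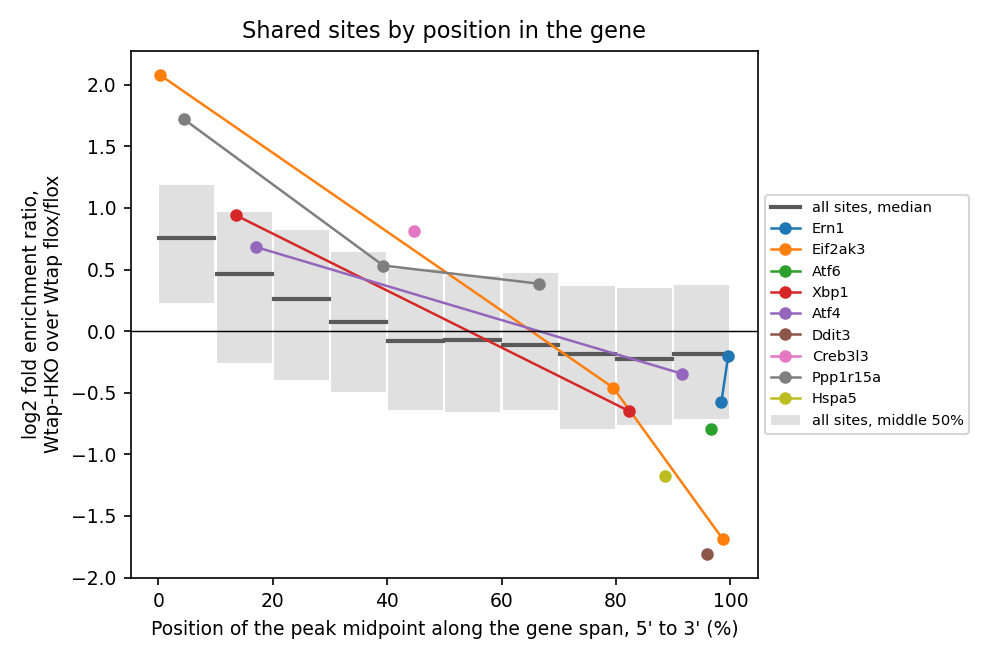
Log2 ratio of fold enrichment, Wtap-HKO over Wtap flox/flox (y axis), by position of the peak midpoint along the gene span (x axis, percent from 5′ to 3′). Coloured points are the 16 shared member sites, joined within a gene, grey boxes span the middle 50% of all sites in each 10% of the span and dark lines are their medians, which go from 0.75 to -0.18.

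Peaks within 200 nt of the 5′ end numbered 2 of the members' 17 in Wtap flox/flox livers (11.8%) and 5 of 21 in Wtap-HKO livers (23.8%). Over all peaks placed on a gene, the shares were 10.8% and 18.4%. The 2 shared sites among them, of Eif2ak3 and Ppp1r15a, were both at least 1.5-fold higher in Wtap-HKO livers, as were 66.5% of the 1401 such sites in the series. The other 3, of Ddit3, Hspa5 and Hsp90b1, were in the Wtap-HKO list only.

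The list of sites that differ between the genotypes, called by the authors' peak caller, held 7 member sites in 6 genes: Ern1 site 1, Eif2ak3 sites 2 and 3, Xbp1 site 2, Ddit3 site 1, Creb3l3 site 2 and Hspa5 site 2. Of all genes with a peak, 27.8% had a site in that list. All 6 of those members were among the 9 with at least 2 peaks in a list, and of such genes in the series 35.4% had one. Of the 7 sites, 5 were shared sites with the lower enrichment in Wtap-HKO livers, Creb3l3 site 2 had no Wtap-HKO peak, and the start of Ddit3 had no Wtap flox/flox peak. None of the 7 shared sites with higher enrichment was in the list. The directions given in that list were not used, and the enrichment ratios of its other sites were not tallied. No share over all its sites stands beside these counts, so they cannot be read as particular to the members. Membership did not follow the size of the ratio, since Eif2ak3 site 1 (4.23-fold), Ddit3 site 2 (3.50-fold) and Ppp1r15a site 1 (3.29-fold) were not in it, while Eif2ak3 site 2 (1.37-fold) was.

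A wider list of 71 other genes of the pathway was mixed as well. Of these, 55 had a peak, and 29 of the 55 (52.7%) had a site in the differential list, beside 27.8% of all genes with a peak. Their 63 shared sites had a median log2 ratio of -0.12. At least 1.5-fold lower were 18 of them (28.6%, beside 25.0% over all sites), and at least 1.5-fold higher were 13 (20.6%, beside 27.9%). By role, the sensors and their regulators had 2 sites lower and 5 higher of 13, other transcription factors 3 and 1 of 9, targets of ATF4 and CHOP 3 and 0 of 5, chaperones and folding enzymes 6 and 4 of 17, ER associated degradation 3 and 2 of 11, translocation into the ER 0 and 1 of 6, and eIF2 with its phosphatases 1 and 0 of 2. The targets of ATF4 and CHOP had the lowest median, -1.09, over 5 sites, 2 of them in Sesn2. Those of Ddit4 (log2 ratio -0.55) and Bbc3 (-0.20) fell short of 1.5-fold. All 5 lay from 57.7% of the gene span onward, where the medians of all sites by position were also below 0 (-0.08 to -0.23). Only sites found 1 to 1 count here. In all, this role had 7 peaks in Wtap flox/flox livers and 8 in Wtap-HKO livers. Trib3, with 2 and 1, gave no such site, and Bbc3 had 1 and 3.

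**Figure D4:**
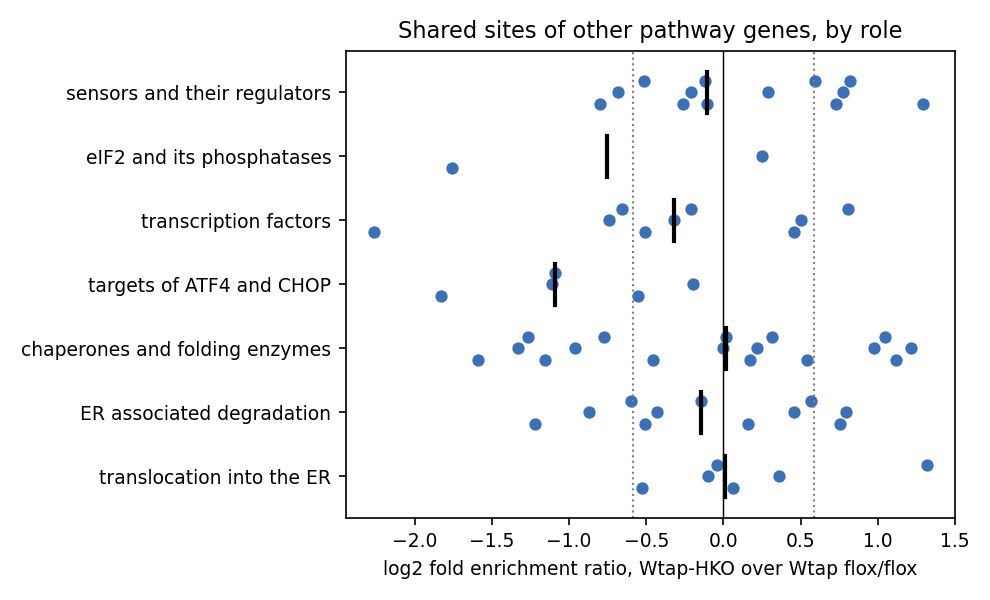
Log2 ratio of fold enrichment, Wtap-HKO over Wtap flox/flox (x axis), at the 63 shared sites of other pathway genes, by role (y axis). Each point is a site, offset vertically for legibility, black bars are medians and dotted lines mark 1.5-fold. All 5 sites of the ATF4 and CHOP targets, which lie in the latter part of their genes, are below 0.

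The 5 lowest ratios of the wider list lay towards 3′ ends, while the next lowest, of Dnajc10 (log2 ratio -1.27), lay 290 nt from the 5′ end. In the series, the last 10% of the gene span held more shared sites than any other 10% (3981). Atf3, a stress-induced transcription factor, had an enrichment of 19.3 in Wtap flox/flox livers and 4.01 in Wtap-HKO livers at 299 nt from the 3′ end (log2 ratio -2.27). Chac1, which degrades glutathione, had 10.9 and 3.07. Nck1, an adaptor protein, had 23.5 and 6.94. The co-chaperones of BiP Dnajb9, with 12.4 and 4.12, and Dnajb11, with 11.5 and 4.58, completed the 5, and the 5 sites lay between 30 and 955 nt from the 3′ end. Counting all peaks of these genes, Atf3 had 1 in Wtap flox/flox livers and 3 in Wtap-HKO livers. Dnajb9 had 2 and 1, and the others had as many in both.

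The highest ratios lay mostly towards starts. Spcs2, a signal peptidase subunit, had 3.33 in Wtap flox/flox livers and 8.33 in Wtap-HKO livers (log2 ratio 1.32) at a site inside the gene. Map3k5, the kinase ASK1, had 4.17 and 10.2 at 371 nt from the 5′ end. The folding factors Sdf2l1 (2.63 and 6.10), Hyou1 (3.40 and 7.37) and Manf (1.99 and 4.11) had theirs at or within 200 nt of the 5′ end.

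Peaks in 1 genotype only were found in 8 genes of the wider list. Edem2, Pdia6 and Syvn1 had peaks in Wtap flox/flox livers alone, with enrichments from 1.74 to 2.67. They made up 5.45% of the 55 genes, beside 7.99% of all genes with a peak. Nupr1, Eif2ak4, Vcp, Edem1 and Creb3 had theirs in Wtap-HKO livers alone, or 9.09% of the 55, beside 22.0% of all genes. Of these 5, all but Edem1 had a peak within 200 nt of the 5′ end, as did 34.2% of the 2049 genes of the series with placed peaks in Wtap-HKO livers alone. Nupr1, a stress-induced regulator of chromatin, had the tallest, 18.2 at its start.

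Peaks on markers of other liver cells differed between the genotypes too. Genes with a peak numbered 2 of 7 in Wtap flox/flox livers and 6 of 7 in Wtap-HKO livers for macrophages and leukocytes (summed fold enrichment 30.7 and 83.6), 2 and 5 of 6 for stellate cells and fibroblasts (47.2 and 118), 5 and 5 of 6 for endothelium (66.1 and 148) and 1 and 2 of 4 for cholangiocytes (30.0 and 33.2). For hepatocytes they were 6 and 5 of 8 (23.3 and 33.6), with Cps1 without a peak in both lists, Cyp2e1 and Fgb without one in Wtap-HKO livers and Ttr without one in Wtap flox/flox livers. Of all genes with a peak in either list, 22.0% had peaks in the Wtap-HKO list only and 7.99% in the Wtap flox/flox list only. The sums also grow with the number of peaks, which was 4 and 12 for macrophages and leukocytes and 9 and 8 for hepatocytes. The part of these markers in the results on the unfolded protein response genes was not tested. Wtap itself had 3 peaks in each list, and a peak list holds no level of its mRNA, so the lists give no check of its deletion.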

How the data were processed

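The m6ARIP-seq peak lists of mouse livers covered 2 genotypes with 2 IP and 2 input libraries each. Per the labels and the study's methods, the authors trimmed reads with fastp (0.19.11 in the submitters' processing notes), aligned them to GRCm38 with BWA (0.7.12) and called peaks with exomePeak, with HOMER (4.9.1) also listed. They deposited 3 lists, a list per genotype and a list of sites that differ, with the replicates combined by a rule that the methods do not name.

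The fold enrichment that the authors deposited is a ratio of IP to input on a linear scale, and the deposited false discovery rates are log10 scores. The differential list also holds 3 columns of the authors' own comparison (a log2 fold change, a p-value and a false discovery rate, the latter as log10 values). These were not used, and only names, positions and pooled enrichments of that list were read. No list holds reads per library, so depth is unknown and no test was run.

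Members were found by gene name in Python 3.11.15 with pandas 2.3.3 and numpy 2.4.6, and figures were drawn with matplotlib 3.10.9. Starts are 1-based. Shared sites overlapped by at least 1 exonic base on the same strand, ratios were taken at sites found 1 to 1, and 1.5-fold was the size counted. Distances run to the nearer edge of a peak from the ends of the gene span in RefSeq GRCm38.p6, with 200 nt as near. All 74 symbols of the wider pathway list were read, of which 3 are second names of genes in it. Its genes named in the text were the 5 with the largest ratio in each direction past 1.5-fold, and up to 4 with a peak in 1 genotype only by enrichment. Creb3 and the lower Syvn1 values were added to that after their values were seen. The matching was tested on simulated peaks. Members and lists were chosen with earlier results of these data known.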

Additional observations from a re-analysis of the deposited data

How the results depend on the processing

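With a 2-fold in place of a 1.5-fold size, 3 of the shared member sites were lower (5 at 1.5-fold) and 2 higher (5 at 1.5-fold). With 500 nt in place of 200 nt as the distance from the 5′ end, 4 Wtap flox/flox peaks of the members lay near it (2 at 200 nt), since the first sites of Xbp1 and Atf4 then count. The other member counts stayed within 1.5 times. They were 13 and 17 peaks (Wtap flox/flox and Wtap-HKO) at a fold enrichment of at least 2, and 16 and 21 at a false discovery rate under 1e-05. The latter cut dropped the Wtap flox/flox peak of Eif2ak3 site 1. By position in place of name there were 17 and 22 peaks, the added one being the unnamed peak at the start of Hsp90b1. Centring the log2 ratios on all sites gave 6 lower (Ern1 site 1 added) and 5 higher. The 16 site ratios kept their direction when centred and when compared as percentile ranks. Taking the nearest RefSeq start, an alternative chosen after seeing the data, put 3 and 6 peaks near a start. No paired analysis was possible because the replicates are combined in every list, and leaving out a replicate was not run for the same reason. Peaks of low enrichment, such as those of Atf4 site 2, Hspa5 site 1 and Creb3l3 site 2 at under 2, and the new or lost peaks depend most on depth, which is unknown.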

Other observations

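Other members of the HSP70 and HSP90 families were looked at after their values were seen. Of 11 such genes, 8 had a peak in either genotype, and Hspa8 and Hsp90aa1, which are abundant in the cytosol, had none. Hspa13, a microsomal HSP70, had an enrichment of 18.3 in Wtap flox/flox livers and 6.42 in Wtap-HKO livers at 2214 nt from the 3′ end (log2 ratio -1.51), a larger decrease than that of Hspa5. Hsp90ab1 had 3.46 and 4.56 at its taller site, and Hspa4 had 3.25 and 3.35. Trap1, the mitochondrial HSP90, had a peak in Wtap-HKO livers alone, with 2.89 at 73 nt from the 5′ end, and Hspa4l had one in Wtap flox/flox livers alone, with 4.03. Peaks of Hspa1a and Hspa1b are uncertain, since the genes are near-identical copies and their reads can be split between them.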
